A study of Mus musculus with 6 samples.

Results

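Odorant-binding lipocalins are small secreted carrier proteins of the nasal mucus, and their transcripts were examined here by level, by spread between mice and by genotype. The 8 gene names Obp1a, Lcn3, Lcn4, Lcn11, Lcn13, Lcn14, Mup4 and Mup5 were matched to the transcript names of the deposited files after removal of a trailing transcript number. Of these, 6 were found among the 24661 genes of the files, and Lcn13 and Lcn14 were not found as names. RefSeq lists Lcn13 and Lcn14 as older names of Obp2a and Obp2b, which the files hold under the newer names and which are described below as related genes rather than as members.

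RNA-Seq was performed on whole olfactory mucosa from 3 wild-type and 3 RTP1,2DKO mice, all labelled C57BL/6 and taken at postnatal day 21. In RTP1,2DKO mice the coding regions of Rtp1 and Rtp2, which encode transport proteins that bring odorant receptors (ORs) to the cell surface, are replaced by a loxP site and a puromycin resistance cassette. The deletion is carried in the germ line and so by every cell type, the embryonic stem cells came from a line hybrid between B6 and another strain before backcrossing to C57BL/6, and the methods describe sex-matched littermates with 2 males and 1 female per group. Both groups were dissected as a whole tissue, so fewer cells of a type and less RNA per cell cannot be told apart in any value given here.

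Lipocalins share a barrel-shaped fold that encloses a pocket for small hydrophobic molecules. In the rodent nose, odorant-binding proteins and several major urinary proteins (Mups) are made by glands beneath the epithelium and are released into the mucus that covers the cilia of olfactory sensory neurons (OSNs). Rtp1 and Rtp2, in contrast, are genes of the OSNs themselves, so the comparison asks how a secretion of neighbouring gland cells stood when the neurons lacked both proteins.

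The 6 genes lie at 3 chromosomal sites. In GENCODE M21 on GRCm38, Obp1a is at chrX:78085505-78091374 on the minus strand, 95.4 kb from its relative Obp1b. Lcn3 at chr2:25765569-25768099 and Lcn11 at chr2:25777017-25780279, both on the plus strand, are 8.9 kb apart, while Lcn4 at chr2:26667674-26671282 on the minus strand is a further 887.4 kb away with 24 coding genes between. Mup4 at chr4:59956804-59960710 and Mup5 at chr4:61831319-61835233, both on the minus strand, are separated by 1870.6 kb that hold 17 other Mup genes. All are annotated as protein-coding, with 7 exons in each gene except Lcn11, which has 6, and no annotated gene overlaps them. The transcripts of Mup4 and Mup5 are 92.1% identical over 926 aligned columns, those of Lcn3 and Lcn4 are 56.4% identical over 721, and those of Obp1a and Obp1b are 70% identical over 794.

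The 100 bases upstream of the annotated start are shown for 5 members as a description. The sequences are from RefSeq on GRCm38.p6, written 5′ to 3′ on the strand of the gene, and capitals mark the letters TATAAA. They cover chrX:78091375-78091474 (- strand) for Obp1a, chr2:25765433-25765532 (+ strand) for Lcn3, chr2:26671283-26671382 (- strand) for Lcn4, chr2:25776917-25777016 (+ strand) for Lcn11 and chr4:59960668-59960767 (- strand) for Mup4. Mup5 is named only.
Obp1a: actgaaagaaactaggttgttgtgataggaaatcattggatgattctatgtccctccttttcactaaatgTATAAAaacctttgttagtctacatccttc
Lcn3: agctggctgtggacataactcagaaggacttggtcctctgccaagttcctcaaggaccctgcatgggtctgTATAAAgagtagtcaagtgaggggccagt
Lcn4: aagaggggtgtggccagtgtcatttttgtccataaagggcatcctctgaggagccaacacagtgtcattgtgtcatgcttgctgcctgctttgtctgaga
Lcn11: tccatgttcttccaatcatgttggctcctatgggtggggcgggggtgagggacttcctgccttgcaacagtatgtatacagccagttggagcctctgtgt
Mup4: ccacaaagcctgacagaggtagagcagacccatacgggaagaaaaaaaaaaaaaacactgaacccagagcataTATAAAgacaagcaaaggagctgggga

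TATAAA was searched on both strands, and it was found on the strand of the gene at position -30 from the start of Obp1a, at -29 for Lcn3 and at -27 for Mup4. The windows of Lcn4 and Lcn11 do not hold these letters. Of all 32851 RefSeq promoter windows of the same length, 1827 hold the letters on either strand, a share of 5.561%. Any relation of these letters to the patterns among mice given below was not tested.

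Total estimated counts per mouse ranged from 31125410 to 41636996 and size factors from 0.907 to 1.147. Rtp1 had 20522, 25301 and 13543 normalized counts in the wild-type mice and 90.6, 85.5 and 109 in RTP1,2DKO (log2 fold change -7.70, adjusted p = 1.21e-08 by edgeR's quasi-likelihood test), and Rtp2 averaged 8388 ± 1181 and 45.0 ± 16.7 (SD, n = 3 each), so that every library matched its label. All 8 marker genes of mature OSNs had a log2 fold change below 0 in RTP1,2DKO. Of these, 7 passed an adjusted p of 0.05 by edgeR, namely Omp, Cnga2, Adcy3, Gnal, Stoml3, Cngb1 and Ano2. They fell by 0.90 to 2.00 on the log2 scale. Gng13 did not pass (log2 fold change -0.76, adjusted p = 0.0924 by edgeR). Xist, which is transcribed from the inactive X chromosome, was at 73666 and 66386 normalized counts in the mice numbered 2 of each group and between 114 and 155 in the other mice.

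The lipocalin genes were among the most abundant transcripts of the tissue. Together the 6 genes took 1.92%, 2.06% and 3.83% of the counts of the wild-type mice and 2.43%, 3.36% and 4.33% of those of the RTP1,2DKO mice. The mean share was 2.6% ± 1.07 for wild-type mice and 3.37% ± 0.949 for RTP1,2DKO mice (SD, n = 3 each), and the groups overlapped. TPM is a level per effective length of transcript, so its ranks depend on that length, which was 213.4 of 757 bases for Obp1a. Ranked by TPM, Obp1a was at place 2 or 3 of all genes in every mouse, and no member was below place 20 in any mouse. By share of counts, Obp1a took 0.5857% to 1.483% per mouse, beside 4.808% to 13.74% for Bpifb9b, another gland product. Obp1b was at place 1 or 2 by TPM. The lowest estimated count of any member in any mouse was 46033, for Lcn11 in wild-type mouse 2, for which counting error alone would be 0.466%. Counting error covers the sampling of reads only.

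Levels were compared between genes as normalized counts per kb of effective length. Obp1a was the highest, with a mean of 1533537 ± 943217 per kb for wild-type mice and 2021083 ± 588417 for RTP1,2DKO mice (SD, n = 3 each), and it was above each of the other members in 6 of 6 mice. In wild-type it was followed by Lcn4 at 639330 ± 251616, Lcn11 at 576048 ± 263264, Lcn3 at 568928 ± 168881, Mup4 at 524730 ± 464568 and Mup5 at 345321 ± 208102 per kb (SD, n = 3 each). In RTP1,2DKO the order after Obp1a was Lcn11 at 827545 ± 202643, Mup4 at 797603 ± 454874, Lcn4 at 764622 ± 198333, Lcn3 at 595102 ± 88674 and Mup5 at 448447 ± 234456 per kb (SD, n = 3 each). Below Obp1a, neighbours in the wild-type order exchanged places between mice: Lcn4 was above Lcn11 in 1 of 6 mice, Lcn11 above Lcn3 in 5, Lcn3 above Mup4 in 3 and Mup4 above Mup5 in 5. Of pairs that were not neighbours in that order, Mup5 was below Lcn4 and below Lcn11 in 6 of 6 mice. Apart from Obp1a and these pairs, no member was above another in all 6 mice. The order also depended on the length used, because the effective lengths in the files were only 140.3 to 320.4 bases for transcripts of 652 to 875 bases. Per kb of full transcript length, Mup4 stood at place 2 and Lcn11 at place 6 in wild-type.

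Obp1a encodes an odorant-binding protein that is secreted by nasal glands. It had 238210, 185935 and 557823 normalized counts in wild-type mice 1, 2 and 3 and 303159, 436830 and 554169 in RTP1,2DKO mice 1, 2 and 3. The highest value was in wild-type mouse 3 and the lowest in wild-type mouse 2, so the RTP1,2DKO values lay inside the wild-type range. The log2 fold change of RTP1,2DKO over wild-type was 0.40 (SE 0.39, 95% interval -0.44 to 1.24), with an adjusted p of 0.788 by edgeR's quasi-likelihood test.

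Lcn3 and Lcn4 encode lipocalins first described as vomeronasal secretory proteins, made by glands of the nasal septum and the vomeronasal organ. Lcn3 had 68516, 120878 and 83355 normalized counts in the wild-type mice and 79199, 106395 and 99704 in RTP1,2DKO. Lcn4 had 81438, 191710 and 163381 in the wild-type mice and 121906, 200625 and 199546 in RTP1,2DKO. For both genes wild-type mouse 1 was the lowest of all 6 mice and wild-type mouse 2 was the highest of its group. Their log2 fold changes were 0.06 (SE 0.22, 95% interval -0.41 to 0.54, adjusted p = 0.950 by edgeR) for Lcn3 and 0.26 (SE 0.30, 95% interval -0.40 to 0.91, adjusted p = 0.826 by edgeR) for Lcn4.

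Lcn11 encodes a further lipocalin of the chromosome 2 group. Its normalized counts were 80772, 43920 and 117803 in wild-type and 83291, 132167 and 132908 in RTP1,2DKO. Wild-type mouse 2 again lay below every other mouse, while wild-type mouse 3 lay within the RTP1,2DKO range. The log2 fold change was 0.52 (SE 0.30, 95% interval -0.14 to 1.19), with an adjusted p of 0.576 by edgeR.

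Mup4 and Mup5 belong to the major urinary protein family, whose best known members are made in the liver and excreted in urine, but both are also transcribed in glands of the head. Mup4 had 118150, 50701 and 335548 normalized counts in wild-type and 132046, 218331 and 416322 in RTP1,2DKO. Mup5 had 85276, 59215 and 184444 in wild-type and 76830, 127018 and 223318 in RTP1,2DKO. For both genes, mouse 3 was the highest of its group in each genotype and wild-type mouse 2 was the lowest of all. The log2 fold change was 0.60 for Mup4 (SE 0.55, 95% interval -0.60 to 1.81, adjusted p = 0.767 by edgeR) and 0.38 for Mup5 (SE 0.41, 95% interval -0.52 to 1.27, adjusted p = 0.806 by edgeR).

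**Figure D1:**
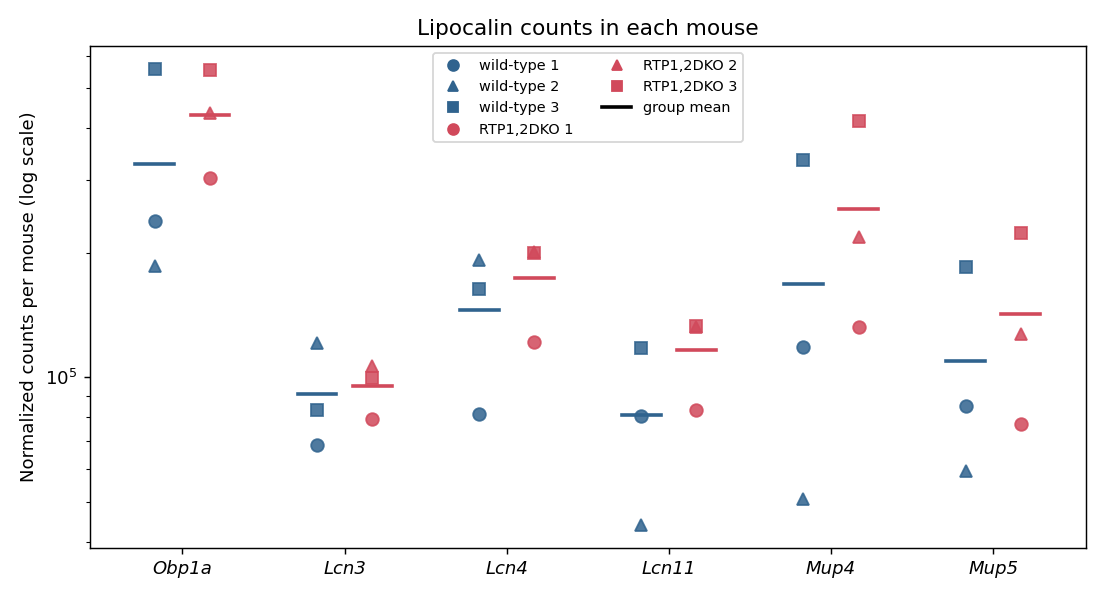
Normalized counts of the 6 lipocalin genes in each of 3 wild-type (blue) and 3 RTP1,2DKO (red) mice, on a log axis, with the shape of a point giving the mouse number and a bar giving the group mean. The groups overlap for every gene, and for Mup4 the 6 mice spread from 50701 to 416322.

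None of the 6 lipocalin genes passed an adjusted p of 0.05 by edgeR, against 3.63% of the 22152 genes tested (0.438% higher and 3.19% lower in RTP1,2DKO). The count was also 0 of 6 at an unadjusted p under 0.05, which 12.1% of all genes reached, and 0 of 6 by DESeq2's Wald test, which called 4.82% of all genes. With the mouse number as a block it was again 0 of 6, against 4.03% of all genes. For all 6 genes the values of the groups overlapped, whereas they did not for 16.4% of all genes. An exact two-sided permutation test gave p-values from 0.2 for Lcn11 to 0.8 for Lcn3, where 3 mice against 3 cannot go below 0.1. The fitted change was above 0 in 6 of 6 genes, with a median log2 fold change of 0.39 beside 0.02 over all genes tested, but the genes varied together between mice and are not independent of each other. The intervals bound what 3 mice against 3 could show: the upper ends ran from 0.54 for Lcn3 to 1.81 for Mup4 and the lower ends from -0.14 for Lcn11 to -0.60 for Mup4 on the log2 scale. The p-values rest on the spread between these mice.

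**Figure D2:**
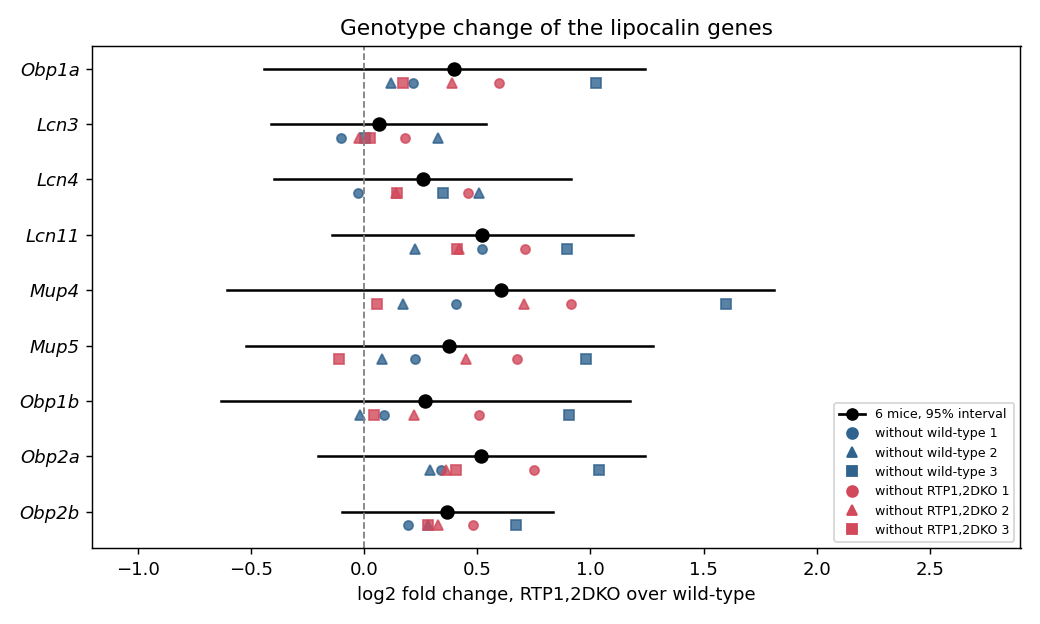
Log2 fold change of RTP1,2DKO over wild-type for the 6 lipocalin genes and for Obp1b, Obp2a and Obp2b, from edgeR with all 6 mice (black, 95% interval) and from fits that omit a single mouse (small points below, blue for a wild-type and red for an RTP1,2DKO mouse left out). Every interval crosses 0, and without wild-type mouse 3 the estimates of Obp1a and Mup4 move to 1.02 and 1.60.

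The size of the change depended on which mouse was present. Leaving out wild-type mouse 3 raised the log2 fold change of Obp1a to 1.02 and that of Mup4 to 1.60, with adjusted p-values of 0.0935 and 0.107 by edgeR, the lowest that either gene reached in any fit. Across fits with 1 mouse left out, the estimate for Mup4 ran from 0.06 to 1.60 and that for Obp1a from 0.12 to 1.02. Lcn3, Lcn4 and Mup5 each turned below 0 in at least 1 such fit.

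The spread between mice of one genotype was wide for these genes. The coefficient of variation in wild-type and RTP1,2DKO was 61.5% and 29.1% for Obp1a, 29.7% and 14.9% for Lcn3, and 39.4% and 25.9% for Lcn4. For Lcn11 it was 45.7% and 24.5%, for Mup4 88.5% and 57.0%, and for Mup5 60.3% and 52.3%. The median over the 6 genes was 53% in wild-type and 27.5% in RTP1,2DKO, while the median over the 13900 genes with a mean of at least 100 normalized counts was 12.7% and 10.1%. From the lowest to the highest mouse, the counts differed 8.21-fold for Mup4, 3.77-fold for Mup5, 3.03-fold for Lcn11, 3.00-fold for Obp1a, 2.46-fold for Lcn4 and 1.76-fold for Lcn3, beside a median of 1.44-fold for the 13900 genes. This order below Mup4 depended on the scaling. By TPM the range was 5.156-fold for Mup4, 2.507 for Lcn4, 2.368 for Mup5, 2.225 for Lcn3, 2.091 for Lcn11 and 1.955 for Obp1a. The spread was lower in RTP1,2DKO than in wild-type for each of the 6 genes, but with 3 mice per group no test of that difference was made.

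The members did not vary as a single group. Wild-type mouse 2 had the lowest count of all 6 mice for Obp1a, Lcn11, Mup4 and Mup5, and the highest of all 6 mice for Lcn3. Likeness was measured as the root mean square difference of log2 counts after each gene was centred on its mean over the 6 mice, so that a smaller value marks a closer pair. Obp1a differed by 0.212 from Mup5 and by 0.231 from Lcn11, and Lcn3 differed by 0.262 from Lcn4. By contrast, Mup4 differed by 1.10 from Lcn3 and by 1.00 from Lcn4. These are descriptions over 6 mice, which share library and dissection for all genes of a mouse.

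**Figure D3:**
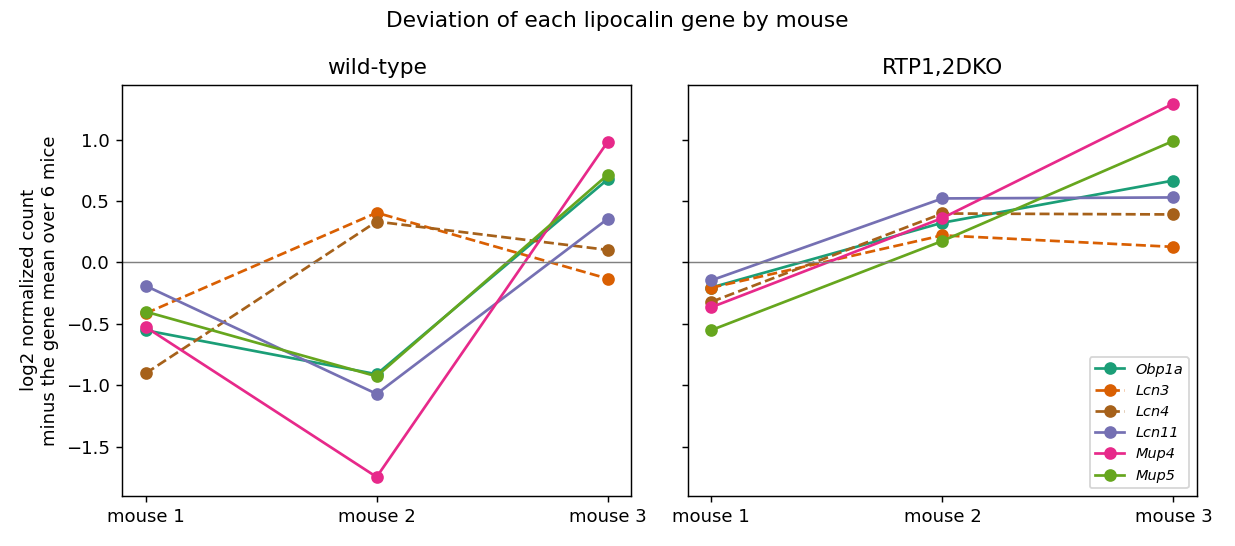
Log2 normalized count of each lipocalin gene in each mouse minus the mean of that gene over the 6 mice, with wild-type on the left and RTP1,2DKO on the right. Lines join the values of one gene and imply no order of the mice. Lcn3 and Lcn4 (dashed) are above their means in wild-type mouse 2, where the other 4 genes are below theirs.

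Ratios of levels per kb of effective length were also taken within each mouse. The ratio of the Mup4 level per kb to that of Lcn3 was 0.860, 0.209 and 2.01 in the wild-type mice and 0.832, 1.02 and 2.08 in RTP1,2DKO, a 9.96-fold range with overlapping groups. The ratio of the Obp1a level per kb to that of Obp1b was 0.553, 0.567 and 0.553 in wild-type and 0.664, 0.575 and 0.605 in RTP1,2DKO, a range of 1.20-fold. Here the groups did not overlap, with means of 0.558 ± 0.00794 and 0.615 ± 0.0453 (SD, n = 3 each), and no test of the ratio was made. Obp1b shares much of its sequence with Gm14743, as given below, so this ratio is uncertain. The per-kb ratio of Lcn3 to Lcn4 ran from 0.712 to 1.20. For the closely similar Mup4 and Mup5 the per-kb ratio ran from 0.848 to 1.85, with wild-type mouse 2 the only mouse in which Mup5 exceeded Mup4.

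The estimated counts of some members share sequence with other genes. Among words of 31 bases in the GENCODE M21 transcripts, 100% of those of Lcn3, Lcn4 and Lcn11 occurred in no other gene. The share was 84.2% for Obp1a, 62% for Mup4 and 63% for Mup5, which share words mainly with each other and with further Mup genes. The division of reads between Mup4 and Mup5 is therefore less certain than that between Lcn3 and Lcn4. The deposited counts were made on UCSC transcripts, not on GENCODE M21, and lengths differ for some genes (875 against 922 bases for Mup4). The shares of words given here and below are therefore a guide to the deposited counts and not an exact measure.

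The 5 genes outside the members with the profile nearest to the mean profile of the 6 lipocalin genes, of 13894 genes compared over 6 mice, were Fndc5 at a root mean square log2 difference of 0.113, Apol7a at 0.123, Cnpy3 at 0.142, Obp2a at 0.146 and Rnase1 at 0.147. Fndc5, which encodes the precursor of irisin, had 3753, 3488 and 6853 normalized counts in wild-type and 4023, 5559 and 7169 in RTP1,2DKO. Apol7a and Rnase1, a secreted ribonuclease, lay between 84 and 221 normalized counts in all mice. None of the 5 passed the test by edgeR, with adjusted p-values from 0.473 to 0.788. The members themselves lay at 0.147 for Obp1a, 0.241 for Mup5, 0.243 for Lcn11, 0.472 for Lcn4, 0.543 for Lcn3 and 0.559 for Mup4 from their mean profile. The 5 genes are therefore near that mean, which is not a close description of Lcn3, Lcn4 or Mup4.

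Mice carrying the same number in both groups were compared because their deviations went together weakly across genes, with correlations of 0.103 to 0.179. That the numbers mark pairs was an assumption. For Mup4 the RTP1,2DKO to wild-type ratio was 1.12, 4.31 and 1.24 in the mice numbered 1, 2 and 3, for Lcn11 it was 1.03, 3.01 and 1.13, and for Obp1a it was 1.27, 2.35 and 0.993. Mup5 gave 0.901, 2.15 and 1.21. For these 4 genes the mice numbered 2 had the highest ratio, whereas for Lcn3 (1.16, 0.880 and 1.20) and Lcn4 (1.5, 1.05 and 1.22) they had the lowest. The mice numbered 2 were also those with high Xist.

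**Figure D4:**
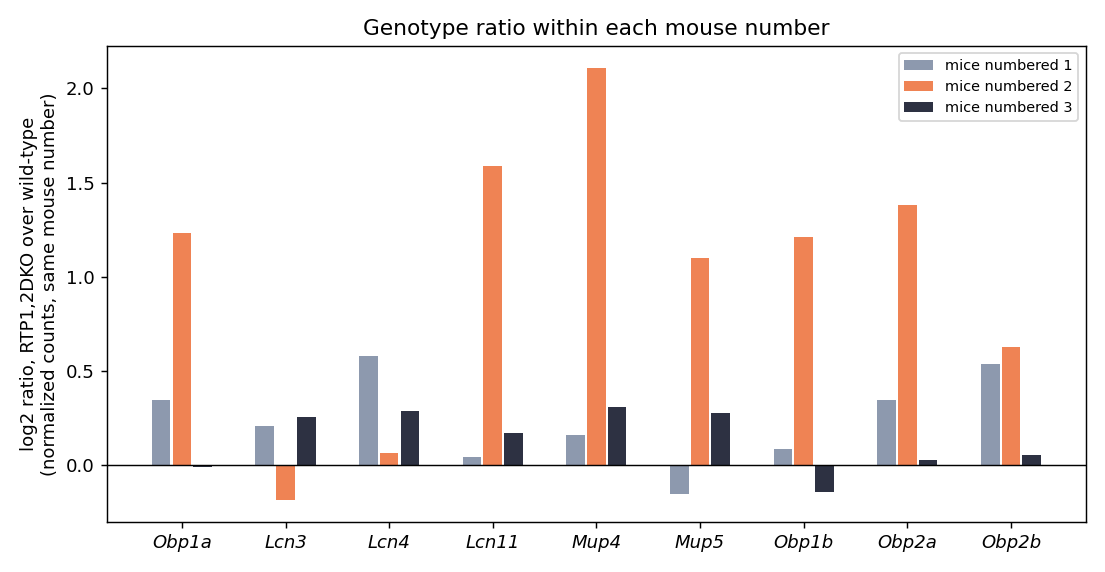
Log2 ratio of RTP1,2DKO over wild-type normalized counts for mice that carry the same number, for the 6 lipocalin genes and for Obp1b, Obp2a and Obp2b, with 1 bar per mouse number. The mice numbered 2 give the tallest bar for every gene shown except Lcn3 and Lcn4, and reach 2.11 for Mup4.

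In the mice with low Xist, the log2 ratio of group means lay between 0.11 for Obp1a and 0.39 for Lcn4. The difference in genotype change between high-Xist and low-Xist mice, a fit chosen after seeing the data, ran from -0.42 for Lcn3 and -0.33 for Lcn4 to 0.95 for Mup5, 1.13 for Obp1a, 1.47 for Lcn11 and 1.83 for Mup4 on the log2 scale. The single high-Xist mouse of each group was assumed to vary like the others, and these values are a description of the pattern that prompted the fit. With 1 high-Xist mouse per group, sex and the single mouse cannot be told apart.

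Other lipocalins were examined for the same comparison. Of 29 names listed, 19 were in the files and 14 could be tested, and 0 passed in either direction by edgeR, at an unadjusted p under 0.05, or by DESeq2. Obp1b had 366556, 279425 and 859836 normalized counts in wild-type and 388851, 647145 and 780266 in RTP1,2DKO, with wild-type mouse 3 the highest and wild-type mouse 2 the lowest as for Obp1a (log2 fold change 0.27, SE 0.41, adjusted p = 0.867 by edgeR). Since 80.7% of the words of Obp1b also occur in Gm14743, its level is uncertain. Obp2a had 85828, 77274 and 187651 in wild-type and 109227, 201648 and 191351 in RTP1,2DKO (log2 fold change 0.52, SE 0.33, adjusted p = 0.629 by edgeR). Obp2b, with 28613, 33862 and 53041 in wild-type and 41583, 52391 and 55118 in RTP1,2DKO, gave 0.37 (SE 0.21, adjusted p = 0.575 by edgeR). These are the genes that RefSeq also lists as Lcn13 and Lcn14, and their groups overlapped as well. Lcn2, which binds bacterial siderophores, Ptgds, a prostaglandin synthase with a lipocalin fold, and Apod, an apolipoprotein, had mean normalized counts of 1094, 1116 and 3733 in wild-type and 1198, 1052 and 4077 in RTP1,2DKO.

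The remaining Mup genes were low in this tissue. The 19 genes summed to between 160 and 1305 normalized counts per wild-type mouse and between 217 and 599 per RTP1,2DKO mouse, beside 50701 or more for Mup4 in each mouse. Of 15 tested, 0 passed by edgeR and 3 reached an unadjusted p under 0.05, namely Mup1, Mup6 and Mup7. Mup7, named because of its value, had 4.1, 9.5 and 6.6 normalized counts in wild-type and 11.6, 44.5 and 67.6 in RTP1,2DKO, with no overlap (log2 fold change 2.59, SE 0.68, adjusted p = 0.0615 by edgeR). It passed with the mouse number as a block (adjusted p = 0.0205) and by DESeq2 (0.0103). Only 9.98% of its words occur in no other gene, and the gene sharing most of them is Mup1 (71.2%), so its counts are uncertain. Mup6 was at 1178 in wild-type mouse 2, the mouse with the lowest Mup4, and between 42.4 and 184 in the other mice (adjusted p = 0.263 by edgeR).

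Other products of the nasal glands differed widely in level and in spread. The 24 genes of the gland secretion list with a mean of at least 100 normalized counts ranged from 1.25-fold to 4.89-fold between the lowest and highest mouse, with a median of 2.25-fold, and Scgb1a1 and Tff3 were at 0 in all mice. Of 28 tested genes for gland secretions, 0 passed in either direction by edgeR and 3 reached an unadjusted p under 0.05, Bpifb1, Dmbt1 and Lpo. The most abundant was Bpifb9b, a member of the BPI-fold family of secreted proteins, with 4108253, 1526336 and 5170209 normalized counts in wild-type and 2166808, 4701418 and 4961082 in RTP1,2DKO. Wild-type mouse 2 was the lowest here too, as it was for Bpifb9a (300286, against 479135 or more elsewhere). Bpifa1, Dmbt1 and Bpifb4, the next in level, averaged 110583, 66205 and 35355 in wild-type and 104876, 49178 and 33165 in RTP1,2DKO. These did not share the low value of wild-type mouse 2. Bpifa1 and Bpifb4 were lowest in RTP1,2DKO mouse 1 (89843 and 29954). Wild-type mouse 2 was the highest of all 6 mice for Dmbt1 (70904) and for Bpifb1 (775). Bpifb1 had a log2 fold change of -0.88 (adjusted p = 0.169 by edgeR), and passed with the mouse number as a block (adjusted p = 0.00747) and by DESeq2 (0.0455), as did Dmbt1 by DESeq2 only (0.0481).

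Among 14 genes of gland secretory cells, 0 passed by edgeR and 1, Krt8, reached an unadjusted p under 0.05. Krt8, a keratin of simple epithelia, had 5448 ± 227 normalized counts in wild-type and 6955 ± 303 in RTP1,2DKO (SD, n = 3), with an adjusted p of 0.116 by edgeR and 0.0380 by DESeq2. The most abundant of the list were Slc12a2, an ion cotransporter, at 28211 and 23948, Xbp1, a regulator of secretory cells, at 10341 and 11905, Ehf at 6861 and 6540, and Krt18 at 5732 and 6610 in wild-type and RTP1,2DKO. The summed level of these 14 genes lay between 73429 and 91079 in wild-type and between 77469 and 89762 in RTP1,2DKO. This was a narrower range than that of the lipocalin genes, whose sum ran from 652359 to 1442354 and from 796432 to 1625967. The sum hides differences between genes. All of the 14 genes except Slc12a2, Agr2 and Krt8 were lowest of all 6 mice in wild-type mouse 2, as Obp1a, Lcn11, Mup4 and Mup5 were. Bhlha15 ran from 1814 in that mouse to 5829 in wild-type mouse 3.

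Markers of other cells that a dissection could include were compared in the same way. Of 8 genes of sustentacular cells 0 passed by edgeR, and the most abundant, Cyp2a5, averaged 101828 ± 12159 in wild-type and 110053 ± 11815 in RTP1,2DKO (SD, n = 3). Of 9 vomeronasal genes 0 passed, with 2 at an unadjusted p under 0.05, and Gnao1, the most abundant, was at 9114 ± 930 and 8391 ± 516 (SD, n = 3). Groups did not overlap for 3 of the 9. Over all genes tested, groups did not overlap for 16.4%, and 12.1% reached an unadjusted p under 0.05 by edgeR. The same shares stand beside the marker lists that follow. Trpc2, the channel of vomeronasal neurons, was at 1024 to 1304 in wild-type and 1402 to 1844 in RTP1,2DKO (log2 fold change 0.46, adjusted p = 0.132 by edgeR), and Gnai2 was at 2696 to 3064 and 3288 to 3752 (adjusted p = 0.281). The list did not move as a whole: 5 of the 9 genes had a log2 fold change above 0. Those of Vmn2r1 (-0.09), Vmn2r26 (-0.22), Fpr-rs4 (-1.06) and Gnao1 (-0.12) were below 0. The part of vomeronasal tissue in the values of Lcn3 and Lcn4 was not tested. Of 7 genes of ciliated respiratory cells 0 passed by edgeR and 2 reached an unadjusted p under 0.05, with Dnah5, the most abundant, between 5369 and 9558. Foxj1, Tekt1 and Ccdc39 were lower in RTP1,2DKO with no overlap of groups (adjusted p = 0.513, 0.360 and 0.0799 by edgeR), and Rsph1 and Dynlrb2 had fold changes above 0.

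Among genes of lacrimal and salivary glands, Amy1 and Smr3a were high in 1 mouse. Amy1, the salivary amylase, was at 15218 normalized counts in wild-type mouse 3 and between 113 and 255 in the other mice, and Smr3a was at 1870 in wild-type mouse 3 and between 56.3 and 151 elsewhere. Other genes of the list did not follow: Muc19 was lowest in wild-type mouse 3 at 17.6, Klk1 was highest in RTP1,2DKO mouse 3 at 2159 against 1803 in wild-type mouse 3, and Csn3 was at 764 and 694 in these mice and at 346 or less in the others. The 9 genes found of this list summed to between 1066 and 19675 in wild-type and between 1298 and 3269 in RTP1,2DKO, and 0 of 7 tested passed by edgeR, with 2 at an unadjusted p under 0.05. Wild-type mouse 3 was also the wild-type mouse with the highest Obp1a, Lcn11, Mup4 and Mup5, at 557823, 117803, 335548 and 184444 normalized counts. In RTP1,2DKO mouse 3, where Amy1 was at 255, these genes were at 554169, 132908, 416322 and 223318. The part of lacrimal and salivary tissue in the lipocalin values was not tested.

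Liver markers were nearly absent, with albumin (Alb) at 0 to 1.1 normalized counts in every mouse and Ahsg, the most abundant of the list, at 8.8 to 31.6. Of the 7 liver genes, 0 passed by edgeR. Of 7 blood genes 0 passed by edgeR, but 6 reached an unadjusted p under 0.05 and all 7 had a fold change above 0. Hbb-bt came nearest, with no overlap of groups (adjusted p = 0.0504 by edgeR). The most abundant, Hbb-bs, was at 62986 ± 14461 in wild-type and 106382 ± 32252 in RTP1,2DKO (SD, n = 3), and the list summed to 58008 to 94622 and 92498 to 170236. The part of blood in the lipocalin values was not tested.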

How the data were processed

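RNA-Seq of whole olfactory mucosa was analysed for 3 wild-type and 3 RTP1,2DKO mice, grouped by the sample labels. Estimated counts and TPM per transcript were deposited by the authors, who ran kallisto on UCSC mouse transcripts in which OR genes had extended annotations. The labels name mm10 as the build, and a kallisto version is not given in the sources used here. The labels and the methods name different stranded library kits. Estimated counts were summed per gene and rounded to whole numbers. The 22152 genes that had 1 count or more in any mouse were fitted in edgeR 4.0.16 (glmQLFTest, size factors of DESeq2 1.42.0, R 4.3.3) with Benjamini-Hochberg adjustment at 0.05, after tests on simulated data. Normalized counts are counts divided by size factors. The deposited TPM, scaled to a fixed total per mouse, served for ranks. Summaries used Python 3.11.15, numpy 2.4.6 and pandas 2.3.3.

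The depth was 31125410 to 41636996 counts per mouse. Single genes were also compared by exact permutation tests over mice. Mice numbered alike in the titles had weakly correlated deviations from their group means (0.139, 0.179 and 0.103 over 18133 genes). For mice numbered differently the correlations ran from -0.219 (wild-type mouse 1 with RTP1,2DKO mouse 2) to 0.093 (wild-type mouse 1 with RTP1,2DKO mouse 3). The last is close to the lowest value of mice numbered alike. The methods describe sex-matched littermates, and that the numbers pair the mice was an assumption. Alternatives were TMM, total-count scaling, a filter on low counts, DESeq2, the replicate block, each mouse left out, both mice numbered 2 left out, and TPM and full transcript lengths for levels.

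The members and the lists were chosen with earlier results of these data known. Genes named are the members, Rtp1, Rtp2 and Xist. Other lipocalin and Mup genes were named if past the threshold or with a mean of at least 100 normalized counts. Gland genes were named if past the threshold or among the 5 highest of their list, and other marker lists by the genes past the threshold or else the most abundant. The 5 genes nearest in profile were added, using log2 of the normalized count plus 1. Mup1, Mup7, Bpifb1, Lpo, Scgb1a1, Tff3, Agr2, Bhlha15, Gng13, Trpc2, Gnai2, Vmn2r1, Vmn2r26, Fpr-rs4, Smr3a, Muc19, Klk1, Csn3, Foxj1, Tekt1, Ccdc39, Rsph1, Dynlrb2, Hbb-bt, Alb and Gm14743 were chosen after their values were seen.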

Additional observations from a re-analysis of the deposited data

How the results depend on the processing

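None of the 6 lipocalin genes passed the threshold under any of the 12 alternatives. Of 72 values, 68 kept their direction and 4 reversed, all with 1 mouse left out. The lowest adjusted p was 0.0935 by edgeR. With 1 mouse left out, the log2 fold change ran from 0.12 to 1.02 for Obp1a, -0.10 to 0.33 for Lcn3, -0.0286 to 0.51 for Lcn4, 0.23 to 0.90 for Lcn11, 0.06 to 1.60 for Mup4, -0.11 to 0.98 for Mup5 and -0.0171 to 0.91 for Obp1b. For Obp2a it ran from 0.29 to 1.04 and for Obp2b from 0.19 to 0.67, with lowest adjusted p-values of 0.0567 and 0.0618 by edgeR. Obp1b was at -0.0669 with both mice numbered 2 left out. The cause was not tested. The number of genes called among all was 804 (97 higher in RTP1,2DKO), 809 with TMM, 667 (40 higher) with total-count scaling, 1067 (199 higher) with DESeq2, 524 to 716 with 1 mouse left out and 296 with both mice numbered 2 left out, a fit with fewer mice. With the replicate block, which pairs the mice by number, it was 892, and the block changed no call of a lipocalin member. Among other lipocalin and Mup genes the count went from 0 to 1 with the block (Mup7), by DESeq2 (Mup7) and without RTP1,2DKO mouse 1 (Mup7) or wild-type mouse 1 (Mup6), and so from 0 to 1 with mice left out. Among gland genes it went from 0 to 1 with the block (Bpifb1), to 3 by DESeq2, and from 0 to 1 with mice left out (Bpifb1, without RTP1,2DKO mouse 2). The median range of the members from lowest to highest mouse was 3.01-fold, and 2.30-fold by TPM. The wild-type level of Mup4 over Lcn3 was 0.922 per kb of effective and 1.45 per kb of full length. Counting error was at most 0.466% for the member values, which covers the sampling of reads and not their division between similar genes. The comparison of genotypes rests on 3 mice per group and the spread between them.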
